A study of Mus musculus with 8 samples.

Results

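The genes described here make fatty acids, change their chains, store them as triglyceride, release them and burn them. They were chosen by name from a list of 38 mouse symbols, and 37 of these had a row among the 18306 genes of the count table. Cd36, a fatty acid transporter, was not found under its symbol or its identifier and is not analysed here. All 37 passed the filter on low counts, so none was lost to it, and the members stand beside 11844 tested genes in all. The cells were C3H10T1/2, an established mouse embryo line with mesenchymal properties that can be turned towards fat, bone or cartilage in culture. They were held for 24 h in medium without serum and then given 5 µM sphingosine 1-phosphate (S1P), a signalling lipid, or its albumin vehicle for a further 24 h. There were 4 vehicle libraries (replicates 1 to 4) and 4 S1P libraries (replicates 5 to 8) of total RNA. Both groups were the same line and the same serum-free medium, with no genetic change named for either, and the labels do not say whether libraries came from separate cultures. The p-values therefore measure only the spread between these libraries, which may be technical.

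Cells build a saturated fatty acid from cytosolic acetyl-CoA, using acetyl-CoA carboxylase and fatty acid synthase. Elongases lengthen the chain and desaturases put in double bonds, which makes the unsaturated acids of membrane lipids and triglyceride. Acyl-CoA synthetases activate free acids, acyltransferases join them to glycerol, perilipins coat the resulting droplets, and lipases take the droplets apart again. Carnitine palmitoyltransferases carry activated acids into mitochondria for oxidation. SREBP transcription factors raise many of the synthetic genes when cells lack sterols or unsaturated acids.

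Library totals ran from 13750303 to 13761544 counts. Vehicle replicate 4 stood apart: on the second principal component it scored -50.8, against -17.1 to 36.5 for the other 7 libraries, and mitochondrial genes took 2.5% of its counts against 3.45% to 3.83%. Mesenchymal markers were abundant, with all 8 listed genes tested and a summed level of 25470 to 32930 CPM (counts scaled to the TMM-adjusted library size) in vehicle and 21990 to 29530 CPM after S1P. Of 8 adipocyte markers 3 had a row, and their sum was 1.24 to 5.04 CPM in vehicle and 3.31 to 14.4 CPM after S1P. Adipoq, which defines adipocytes, lay at 0 to 0.284 CPM in every library. Immune markers summed to at most 1.11 CPM, epithelial markers to at most 2.83 CPM and muscle markers to at most 0.148 CPM, while the endothelial sum of 17.2 to 76.9 CPM was almost all Tek.

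After S1P, 5 of the 37 members rose and 1 fell, and 31 did not pass the test. The desaturases Scd1 and Scd2, the acyl-CoA synthetases Acsl3 and Acsl4 and the phosphatidate phosphatase Lpin2 rose, by 1.29-fold to 2.37-fold, and the triglyceride synthase Dgat2 fell 2.16-fold (edgeR quasi-likelihood test with Benjamini-Hochberg, BH, adjustment over all tested genes, threshold 0.05). Over all tested genes 5.6% rose and 2.9% fell by the same rule, or 8.5% in either direction. Among the members 13.5% rose, beside that 5.6%. The members were chosen with earlier results of these data known, so these shares are descriptions and are no evidence of a pathway response. The median log2 fold change of the members was -0.06, and that of all tested genes was -0.04. At an unadjusted p under 0.05 there were 9 members higher and 7 lower, where 24.9% of all genes had such a p in either direction. The groups did not overlap in 9 of the 37 members (24.3%), against 19.1% of all tested genes (11.9% higher and 7.21% lower). These 9 were the 6 called genes and Lipe, Cpt1a and Cpt2, all of which lay lower after S1P. Without vehicle replicate 4, 9 members rose and 3 fell, where 9.49% of all genes rose and 6.05% fell. Leaving out S1P replicate 5 as well gave 8 and 4 members, beside 9.92% and 7.87% of genes. DESeq2 called 6 members higher and 3 lower (8.16% and 6.79% of genes), and a fit with 1 surrogate variable 9 and 4 (12.4% and 8.57%, or 21.0% in either direction). Over all genes the calls split into 663 higher and 344 lower in edgeR, 967 and 804 in DESeq2, and 563 and 440 with upper-quartile scaling. Omitting S1P replicate 6, 7 or 8 lowered these edgeR counts to 333, 408 or 360 genes higher and 101, 151 or 108 lower. In those fits 3 members rose, and 0, 1 or 0 fell. Tested against a 1.5-fold change (glmTreat in edgeR), 0 members passed in either direction. The calls for Scd1, Scd2 and Acsl3 held when each of the 8 libraries was omitted in turn. Those for Lpin2, Acsl4 and Dgat2 were made in 1, 2 and 6 of these 8 fits.

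**Figure D1:**
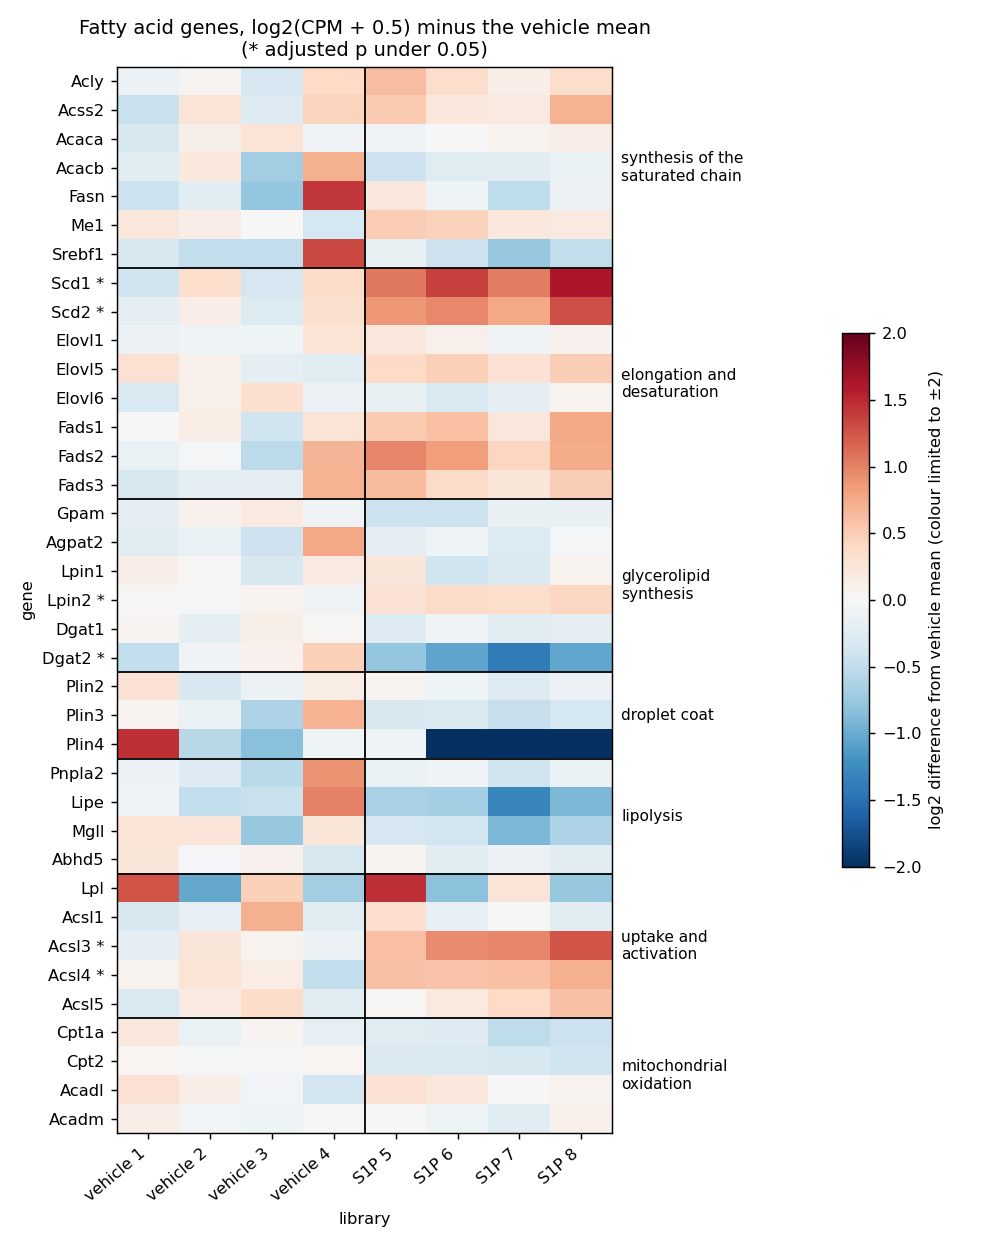
Level of each of the 37 members in each library (columns: vehicle 1 to 4, then S1P 5 to 8), as log2(CPM + 0.5) minus the mean of the 4 vehicle libraries, with members (rows) grouped by role and asterisks at those past the threshold. Scd1, Scd2, Acsl3, Acsl4 and Lpin2 are red in all 4 S1P libraries, Dgat2 is blue in all 4, and vehicle 4 is red for Fasn and Srebf1.

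Both stearoyl-CoA desaturases among the members rose. Scd1, the stearoyl-CoA desaturase of liver and fat that makes monounsaturated acids (chromosome 19, 44468741 to 44482399 in mm9), held 87.7, 148, 91.6 and 149.5 CPM in vehicle replicates 1 to 4 and 242, 299, 235 and 355 CPM in S1P replicates 5 to 8. Every S1P library was above every vehicle library. The rise was 2.37-fold, from 119 ± 34.2 to 283 ± 55.9 CPM (SD over 4 libraries each; log2 fold change 1.25, SE 0.22, edgeR BH-adjusted p = 0.00966). Leaving out any library gave log2 fold changes of 1.1 to 1.37.

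Scd2, the related desaturase best known from brain (chromosome 19, 44367966 to 44381554), was the more abundant of the pair. It held 654, 819, 621 and 935 CPM in vehicle and 1356, 1451, 1272 and 1822 CPM after S1P, again without overlap. It rose 1.95-fold, from 757 ± 147 to 1475 ± 242 CPM (log2 fold change 0.96, SE 0.17, edgeR BH-adjusted p = 0.0103). Per kilobase of the longest annotated transcript, the mean level in vehicle was 24.7 CPM for Scd1 and 139 CPM for Scd2, and after S1P 58.5 and 270.4 CPM. Little of their sequence is shared with other genes: of all 50-base stretches in their annotated transcripts, 4.56% of those in Scd1 and 3.97% of those in Scd2 also occur elsewhere. Of their family, Scd3 had at most a single count in a library, and Scd4 lay at 0.781 to 2.54 CPM.

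The fatty acid desaturases that make polyunsaturated acids did not pass in edgeR with all libraries. Fads1, the delta-5 desaturase, held 177 to 279 CPM in vehicle and 272 to 393 CPM after S1P (log2 fold change 0.52, SE 0.17, edgeR BH-adjusted p = 0.09). Fads2, the delta-6 desaturase, held 56.3, 60.3, 42.8 and 99.5 CPM in vehicle and 122, 110, 83.7 and 103 CPM after S1P (log2 fold change 0.69). Fads3, a related desaturase, held 85.9, 94.6, 93.2 and 174 CPM, then 166, 140, 127 and 151 CPM (log2 fold change 0.38). In Fads2 vehicle replicate 4 alone reached into the S1P range. In Fads3 vehicle replicate 4 lay above every S1P library, and the other vehicle libraries lay below them all. Without vehicle replicate 4 all 3 rose, with log2 fold changes of 0.61, 0.98 and 0.68 (edgeR BH-adjusted p = 0.0376, 0.00657 and 0.00539). DESeq2 called Fads1 higher with all libraries (BH-adjusted p = 0.0492), and a surrogate variable in edgeR gave calls for all 3. That surrogate mainly set vehicle replicate 4 apart, so its calls are not separate from those without this library. The 3 genes are neighbours on chromosome 19, between 10115838 and 10271560.

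Elongases did not pass with all libraries in edgeR, DESeq2 or limma-voom. Elovl5, which lengthens polyunsaturated acids, had a log2 fold change of 0.40 (SE 0.13, edgeR BH-adjusted p = 0.101). Its vehicle libraries held 78.3 to 112 CPM and its S1P libraries 111 to 127 CPM, so the groups met at the edge. Without vehicle replicate 1 it rose (log2 fold change 0.49, edgeR BH-adjusted p = 0.0489). Elovl6, which lengthens palmitate, held 100.4 to 155 CPM in vehicle and 100.4 to 131 CPM after S1P (log2 fold change -0.16), and Elovl1, which makes very long chains, 78.6 to 103 and 80.7 to 100.1 CPM (log2 fold change 0.08). Elovl1 shares 453 bases of its span with Cdc20, and how reads there were assigned is not given.

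**Figure D2:**
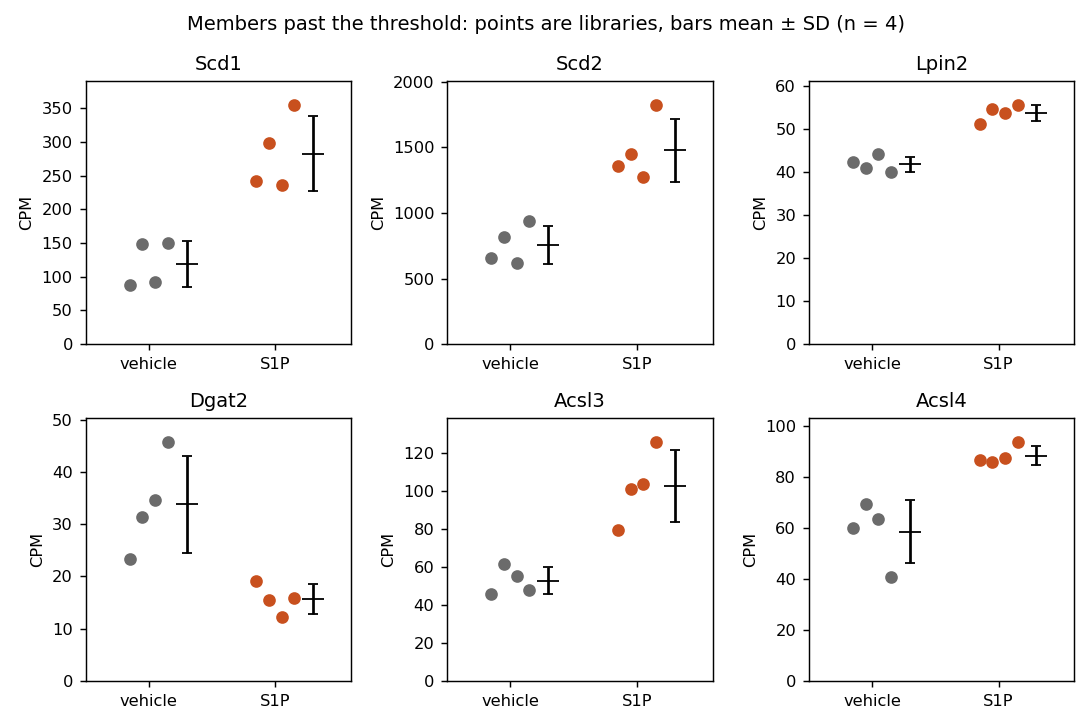
CPM in each library for the 6 members past the threshold, with vehicle in grey, S1P in orange and the mean ± SD (n = 4) as bars beside the points. In each panel the groups do not overlap, and the S1P libraries lie below vehicle only for Dgat2.

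None of the 7 genes that supply and build the saturated chain passed the edgeR test, nor that of DESeq2 or limma-voom. Of the 7, 1 gene, Me1, had an unadjusted p under 0.05, beside 24.9% of all tested genes. Acly, the ATP-citrate lyase that makes cytosolic acetyl-CoA, was the most abundant per kilobase of transcript, with 182, 204, 156 and 260 CPM in vehicle and 304, 251, 216 and 252 CPM after S1P (log2 fold change 0.35, SE 0.17, edgeR BH-adjusted p = 0.235). Vehicle replicate 4 lay inside the S1P range, and without it Acly rose (log2 fold change 0.50, edgeR BH-adjusted p = 0.0375). Acss2, which makes acetyl-CoA from acetate, had a log2 fold change of 0.39, and Me1, the malic enzyme that supplies NADPH, one of 0.33. Neither passed, and 22.9% of the 50-base stretches of Me1 also occur in other genes, mostly the pseudogene Gm7049. The span of Acss2 shares 22944 bases with Gss.

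Fasn, the synthase that assembles palmitate (chromosome 11, 120667054 to 120685692), held 84.1, 97.4, 65.8 and 301 CPM in vehicle and 130, 106, 79.7 and 104 CPM after S1P. A single vehicle library, replicate 4, was 3 times or more above the others, and the groups overlapped. The log2 fold change was -0.38 (SE 0.44, edgeR BH-adjusted p = 0.614) and turned to 0.35 without that library (adjusted p = 0.229 in edgeR). Srebf1, which encodes the SREBP-1 factors, behaved alike in that library: 17.8, 15.7, 15.7 and 56.5 CPM in vehicle and 20.2, 16.7, 13.1 and 15.7 CPM after S1P. Its log2 fold change was -0.68 with all libraries and 0.01 without vehicle replicate 4 (edgeR BH-adjusted p = 0.339 and 0.986).

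Acaca, the cytosolic acetyl-CoA carboxylase, held 77.2 to 116 CPM in vehicle and 91.8 to 106 CPM after S1P (log2 fold change 0.02, SE 0.13). Of its 50-base stretches 30.4% occur in other genes too, mostly the pseudogene Gm5182, so its level is uncertain to that extent. Acacb, the carboxylase that sits at mitochondria, was near 2 CPM in most libraries, from 1.41 to 4.5 CPM in vehicle and 1.8 to 2.3 CPM after S1P (log2 fold change -0.41). Neither carboxylase showed a difference larger than the spread between libraries.

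Transcripts of the acyl-CoA synthetase genes Acsl3 and Acsl4 rose in edgeR with all libraries, and those of Acsl1 and Acsl5 did not pass. Acsl3, a long-chain acyl-CoA synthetase of endoplasmic reticulum and lipid droplets (chromosome 1, 78654200 to 78703762), held 46.0, 61.7, 55.1 and 48.0 CPM in vehicle and 79.5, 101, 104 and 126 CPM after S1P. The groups were apart, with S1P replicate 5 the lowest of its group. The rise was 1.95-fold, from 52.7 ± 7.16 to 103 ± 19.0 CPM (log2 fold change 0.96, SE 0.16, edgeR BH-adjusted p = 0.00699). The span of Acsl3 shares 9951 bases with Utp14b, which had a mean of 7.54 CPM.

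Acsl4, the synthetase that prefers arachidonic acid (X chromosome, 138752336 to 138825278), held 60.02, 69.2, 63.4 and 40.8 CPM in vehicle and 86.4, 85.6, 87.1 and 93.7 CPM after S1P. Here vehicle replicate 4 was the lowest library. The rise was 1.51-fold, from 58.3 ± 12.3 to 88.2 ± 3.72 CPM (log2 fold change 0.60, SE 0.16, edgeR BH-adjusted p = 0.0459). When each library was omitted in turn, the call was made only without vehicle replicate 2 or 4 (edgeR BH-adjusted p of up to 0.13). With all 8 libraries the Acsl4 call was lost with the size factors of DESeq2 or upper-quartile factors (edgeR BH-adjusted p = 0.0506 and 0.0613). Acsl5, the most abundant synthetase per kilobase of transcript, held 146 to 233 CPM in vehicle and 184 to 272 CPM after S1P (log2 fold change 0.29, SE 0.18), and Acsl1 held 35.8 to 73.7 and 38.7 to 56.7 CPM (log2 fold change -0.06). Neither passed, and the span of Acsl5 shares 7438 bases with Zdhhc6.

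Lpl, the lipoprotein lipase that frees fatty acids outside the cell, varied more within each group than between them. It held 9.87, 1.63, 5.55 and 2.18 CPM in vehicle and 11.5, 1.96, 4.7 and 2.08 CPM after S1P. The log2 fold change was 0.07 with an SE of 0.69.

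Glycerolipid synthesis had members in both directions. Dgat2, a diacylglycerol acyltransferase that takes the last step to triglyceride (chromosome 7, 106301973 to 106331423), held 23.3, 31.4, 34.7 and 45.8 CPM in vehicle and 19.1, 15.6, 12.2 and 15.8 CPM after S1P. All S1P libraries were below all vehicle libraries. It fell 2.16-fold, from 33.8 ± 9.31 to 15.7 ± 2.81 CPM (log2 fold change -1.11, SE 0.22, edgeR BH-adjusted p = 0.0144). The call was lost without S1P replicate 6 or 8 (edgeR BH-adjusted p of up to 0.0564), with log2 fold changes of -1.28 to -0.93 over the 8 such fits. Dgat1, the other enzyme of that step, held 14.5 to 18.1 CPM in vehicle and 13.9 to 15.6 CPM after S1P (log2 fold change -0.20, SE 0.13, edgeR BH-adjusted p = 0.384).

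Lpin2, a lipin that turns phosphatidate into diacylglycerol (chromosome 17, 71531700 to 71599357), made a small and even step. It held 42.3, 41.0, 44.2 and 40.03 CPM in vehicle and 51.2, 54.7, 53.8 and 55.7 CPM after S1P. The rise was 1.29-fold, from 41.9 ± 1.79 to 53.8 ± 1.92 CPM (log2 fold change 0.36, SE 0.09, edgeR BH-adjusted p = 0.0446). With libraries omitted in turn, the call was made only without vehicle replicate 4 (edgeR BH-adjusted p of up to 0.146), although the log2 fold change stayed between 0.34 and 0.39. With all 8 libraries the Lpin2 call was also lost with the size factors of DESeq2, with upper-quartile factors and with no filter on low counts (edgeR BH-adjusted p = 0.0554, 0.0749 and 0.084). Lpin1, its relative, held 12.7 to 18.0 CPM in vehicle and 12.1 to 19.1 CPM after S1P (log2 fold change -0.08). Gpam, the mitochondrial enzyme that starts glycerolipid synthesis, had a log2 fold change of -0.29 (edgeR BH-adjusted p = 0.189), and Agpat2, the acyltransferase of the next step, one of -0.23 that became 0.12 without vehicle replicate 4.

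The promoter sequences of the called genes are shown because these genes moved in the same comparison. RefSeq windows of the 250 bases upstream of an annotated start were at hand for 31 of the 37 members. Dgat1, Dgat2, Fads1, Lpl, Scd1 and Scd2 had no entry. The windows below (GRCm38.p6, read in the direction of the gene) are those of Acsl3 at chr1:78657575-78657824 on the plus strand, of Acsl4 at chrX:142390536-142390785 on the minus strand, and of Lpin2 at chr17:71183282-71183531 on the plus strand, the farthest upstream of its 3 annotated starts. Capitals mark the letters CCAAT (the NF-Y box) or CACGTG (the E-box).
Acsl3: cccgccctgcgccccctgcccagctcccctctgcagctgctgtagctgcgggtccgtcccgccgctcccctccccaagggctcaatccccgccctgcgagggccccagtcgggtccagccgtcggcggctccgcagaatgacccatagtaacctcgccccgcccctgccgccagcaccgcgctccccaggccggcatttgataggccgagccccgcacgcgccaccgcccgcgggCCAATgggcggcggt
Acsl4: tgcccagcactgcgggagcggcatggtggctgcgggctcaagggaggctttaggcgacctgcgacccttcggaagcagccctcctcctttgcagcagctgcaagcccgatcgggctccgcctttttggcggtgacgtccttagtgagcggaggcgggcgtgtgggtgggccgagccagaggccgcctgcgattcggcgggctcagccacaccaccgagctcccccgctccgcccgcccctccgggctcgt
Lpin2: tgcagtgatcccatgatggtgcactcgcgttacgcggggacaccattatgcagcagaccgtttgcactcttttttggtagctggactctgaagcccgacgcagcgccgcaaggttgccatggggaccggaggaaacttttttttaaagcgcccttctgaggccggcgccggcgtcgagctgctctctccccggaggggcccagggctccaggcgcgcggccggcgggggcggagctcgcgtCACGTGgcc
Acsl3 held 1 CCAAT, the Lpin2 window printed here held 1 CACGTG, and Acsl4 held neither. Of the other windows of Lpin2, the farthest downstream (71204404 to 71204653) held 3 CCAAT, all on the opposite strand, and the middle one held neither motif. The sterol response letters TCACNCCAC were in none of these windows. Both strands were searched, and the motifs did not overlap in these windows. Over all 32851 windows of this length, 33.8% held CCAAT, 6.02% CACGTG and 1.05% TCACNCCAC. Over the 41 windows of the members the shares were 43.9%, 9.76% and 2.44%, where the last is a single window, of Acsl1. A match describes the letters alone.

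Droplet coat genes were lower in point estimate, and none of the 3 passed in edgeR, DESeq2 or limma-voom. Of the 3, 1 had an unadjusted p under 0.05, beside 24.9% of all tested genes. Plin2, the perilipin found in most cell types and per kilobase the most abundant of the 3, held 129, 83.8, 96.3 and 117 CPM in vehicle and 109, 98.9, 87.6 and 96.3 CPM after S1P (log2 fold change -0.12, SE 0.15, edgeR BH-adjusted p = 0.634). Plin3, another coat protein of many tissues, had a log2 fold change of -0.43 with all libraries and -0.15 without vehicle replicate 4. Plin4, a perilipin of adipocytes, held 80.3, 19.5, 15.9 and 27.2 CPM in vehicle and 27.5, 5.23, 4.92 and 4.31 CPM after S1P (log2 fold change -1.77, SE 0.73, edgeR BH-adjusted p = 0.173). S1P replicate 5 was more than 5 times above the other S1P libraries, and without it Plin4 fell (log2 fold change -2.89, edgeR BH-adjusted p = 0.025). Vehicle replicate 1 was the highest of its own group, and without it the log2 fold change shrank to -1.02 (edgeR BH-adjusted p = 0.364). Its span shares 406 bases with Hdgfrp2.

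Lipolysis genes were all below 0 in log2 fold change and none of the 4 passed in edgeR, DESeq2 or limma-voom. Of the 4, 2 had an unadjusted p under 0.05, beside 24.9% of all tested genes. Abhd5, the co-activator of adipose triglyceride lipase and per kilobase the most abundant of them, held 52.4, 43.4, 47.1 and 35.4 CPM in vehicle and 45.8, 38.2, 40.7 and 37.7 CPM after S1P (log2 fold change -0.14, SE 0.14). Pnpla2, which encodes that lipase, held 4.96 to 14.3 and 5.51 to 7.05 CPM, and its log2 fold change of -0.31 became 0.12 without vehicle replicate 4. Lipe, the hormone-sensitive lipase, held 4.48, 3.19, 3.33 and 9.95 CPM in vehicle and 2.82, 2.76, 1.62 and 2.3 CPM after S1P (log2 fold change -1.14, SE 0.40, edgeR BH-adjusted p = 0.117). Its groups did not overlap, but the gap was small, and the log2 fold change was -0.63 without vehicle replicate 4. With a surrogate variable Lipe fell (log2 fold change -0.77, edgeR BH-adjusted p = 0.0296). Mgll, which cleaves monoglycerides, held 15.3, 15.1, 7.18 and 14.9 CPM in vehicle and 9.82, 9.52, 6.54 and 8.05 CPM after S1P. It fell without vehicle replicate 3 (log2 fold change -0.83, edgeR BH-adjusted p = 0.0354) and not with it (log2 fold change -0.63, adjusted p = 0.178 in edgeR).

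**Figure D3:**
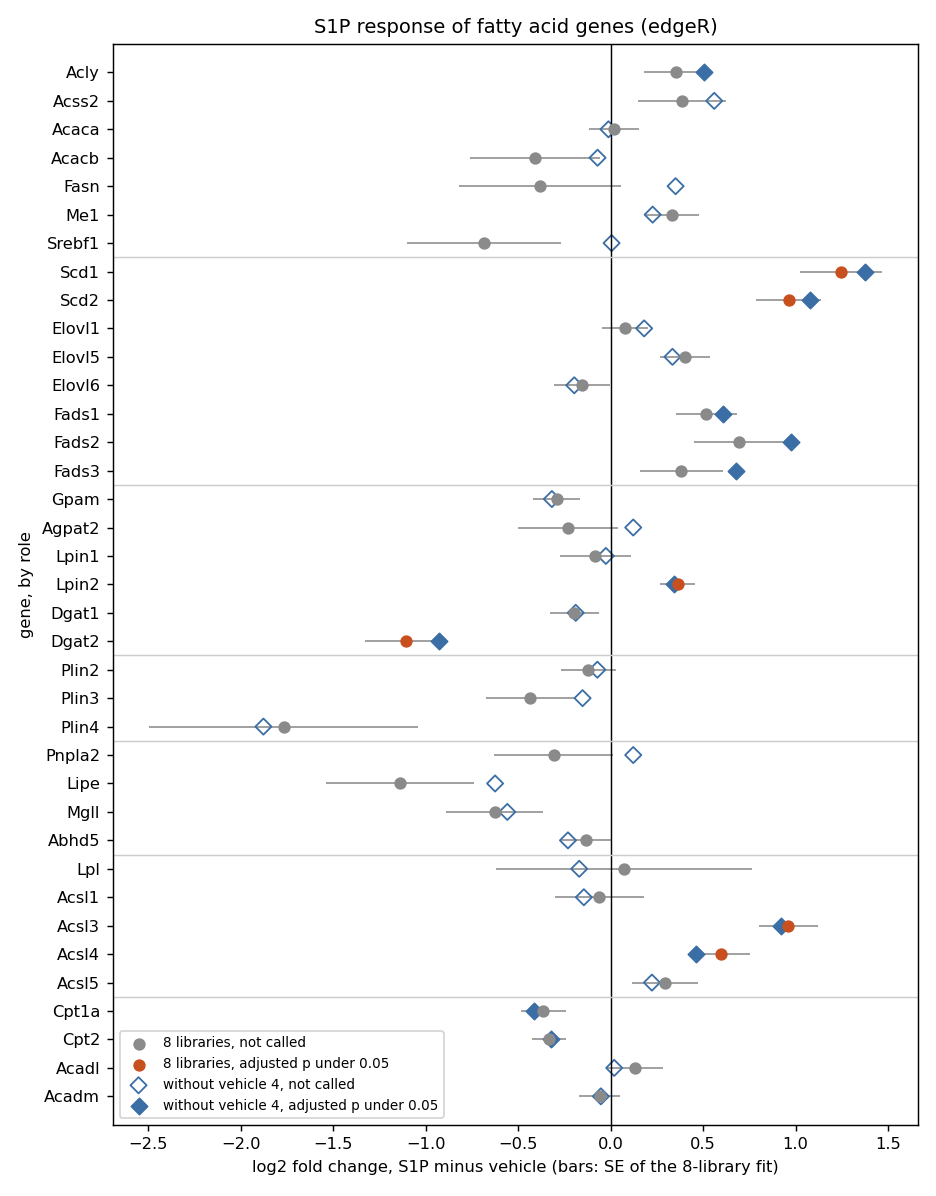
Log2 fold change of S1P against vehicle for each member (rows, by role), with circles and SE bars for all 8 libraries and diamonds for the fit without vehicle replicate 4; orange circles and filled diamonds mark an edgeR adjusted p under 0.05. Leaving out that library moved Fasn from -0.38 to 0.35 and Srebf1 from -0.68 to 0.01, and left Scd1 at 1.37 and Scd2 at 1.08.

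The members Cpt1a and Cpt2, carnitine palmitoyltransferases that bring fatty acids into mitochondria, were lower in every S1P library than in any vehicle library, by a small amount. Over all tested genes 7.21% lay lower without overlap. Their relative Cpt1c, not a member, overlapped between the groups, at 10.8 to 28.3 CPM in vehicle and 11.5 to 15.95 CPM after S1P (edgeR BH-adjusted p = 0.491). Another relative, Cpt1b, had at most 2 counts in a library. None of the 4 oxidation genes among the members passed in edgeR or limma-voom. Of the 4, 2 had an unadjusted p under 0.05, beside 24.9% of all tested genes. DESeq2 called those 2, Cpt1a and Cpt2, lower, where it called 6.79% of all tested genes lower. Cpt1a, the rate-limiting enzyme of the outer membrane, held 119, 92.9, 106 and 91.0 CPM in vehicle and 86.1, 84.9, 71.4 and 75.4 CPM after S1P (log2 fold change -0.37, SE 0.12, edgeR BH-adjusted p = 0.0995). Cpt2, its partner in the inner membrane, held 51.8, 49.2, 49.3 and 51.8 CPM in vehicle and 41.1, 40.8, 40.5 and 38.01 CPM after S1P (log2 fold change -0.33, SE 0.09, edgeR BH-adjusted p = 0.056). Without vehicle replicate 4 both fell, at log2 fold changes of -0.42 and -0.32 (edgeR BH-adjusted p = 0.0351 and 0.023), and in DESeq2 the adjusted p were 0.0279 and 0.0014. The acyl-CoA dehydrogenases Acadl and Acadm, which start each round of oxidation for long and medium chains, had log2 fold changes of 0.13 and -0.06, with overlapping groups.

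Pairs of members that share a step or family were compared within each library, as the difference of their log2(CPM + 0.5) values, for 9 pairs. With 4 libraries against 4, the exact two-sided permutation test over 70 regroupings cannot go below p = 0.0286, and no pair reached it. The ratio of Dgat1 to Dgat2 was -0.96 ± 0.41 in vehicle and -0.09 ± 0.28 after S1P on the log2 scale (SD, n = 4 per group; difference 0.87, exact permutation p = 0.0571, Benjamini-Hochberg adjusted over the 9 pairs p = 0.171). In S1P replicate 5 the ratio was -0.45, just below the highest vehicle library at -0.42. Scd1 to Scd2 moved by 0.30 and Acsl3 to Acsl4 by 0.33, at the same p values of 0.0571 and 0.171 in the exact permutation test. For the remaining 6 pairs (Acaca-Acacb, Elovl5-Elovl6, Fads1-Fads2, Lpin1-Lpin2, Plin2-Plin3 and Cpt1a-Cpt2) the difference lay between -0.45 and 0.56, with exact permutation p of 0.0857 to 0.857.

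Vehicle replicate 4 moved with the base composition of the members. Its deviation from the mean of the other vehicle libraries ran from -0.93 to 1.88 on the log2 scale, with Fasn and Srebf1 at the top and Lpl at the bottom. Across the 37 members the deviation correlated with the GC content of the longest annotated transcript at r = 0.78, and across 11634 tested genes at r = 0.76 (a description, since genes of a library share its preparation and are not replicates). For the other 7 libraries, each against the rest of its group, r across the members lay between -0.66 and 0.32. The GC content of the transcripts was 57.9% for Fasn, 58.4% for Srebf1 and 58.0% for Agpat2, and 39.0% for Acsl4. The part that base composition plays in the members' results was not tested. The called genes Scd1, Scd2, Acsl3, Acsl4, Lpin2 and Dgat2 stayed past the threshold without this library. Their log2 fold changes went from 1.25 to 1.37 for Scd1, 0.96 to 1.08 for Scd2 and 0.96 to 0.92 for Acsl3. For Acsl4 the change went from 0.60 to 0.46, for Lpin2 from 0.36 to 0.34 and for Dgat2 from -1.11 to -0.93.

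**Figure D4:**
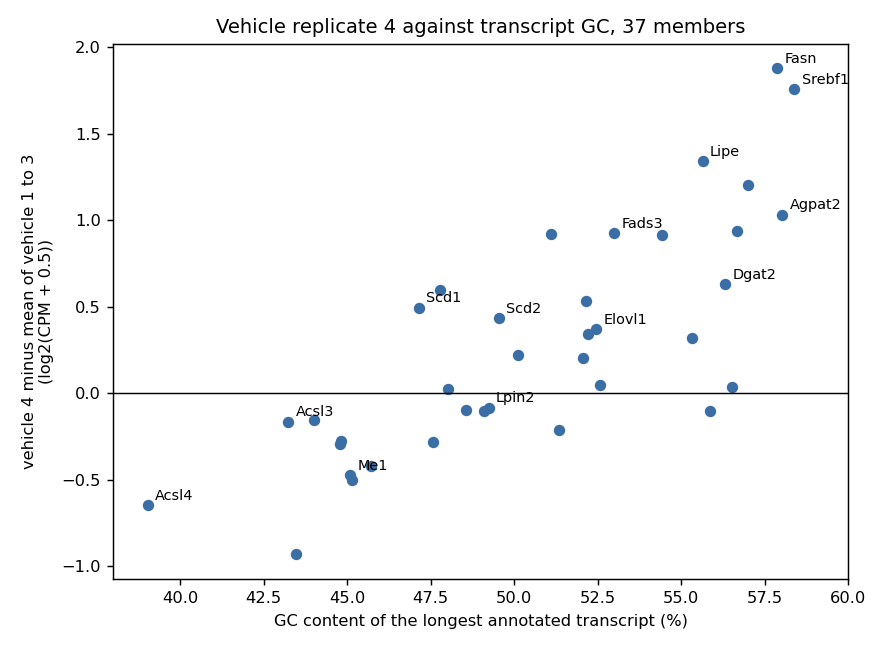
Difference between vehicle replicate 4 and the mean of vehicle replicates 1 to 3 (y axis, log2(CPM + 0.5)) against the GC content of each member's longest annotated transcript (x axis, %); each point is a gene, 37 in all. Points rise from -0.65 for Acsl4 at 39.0% GC to 1.88 for Fasn at 57.9% GC.

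Other genes of the pathway were read from lists that did not include the members. Of 15 tested further genes of synthesis and chain modification none passed in edgeR, DESeq2 or limma-voom. Of the 15, 1 had an unadjusted p under 0.05, beside 24.9% of all tested genes. Their median log2 fold change was 0.08. A surrogate variable in edgeR gave 2 higher, Mid1ip1 and Hsd17b12, or 13.3% beside 21.0% of all tested genes. Without vehicle replicate 4 edgeR called Mid1ip1 higher, or 6.67% beside 15.5%. The 2 of the 15 with the most counts were Hsd17b12 and Idh1. Hsd17b12, the ketoreductase of chain elongation, held 122 to 200 CPM in vehicle and 211 to 246 CPM after S1P. Its log2 fold change was 0.44 (edgeR BH-adjusted p = 0.109), and that of Idh1, a cytosolic source of NADPH, was 0.27. Of 12 further glycerolipid, droplet and lipase genes none passed in edgeR or limma-voom, 1 had an unadjusted p under 0.05, and DESeq2 called that gene, Agpat3, lower. Lipa, the lysosomal acid lipase, held 672 to 1359 CPM in vehicle and 576 to 821 CPM after S1P (log2 fold change -0.48, edgeR BH-adjusted p = 0.226), and Gpat4, listed as Agpat6 in the table, had a log2 fold change of 0.16.

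Of 33 further activation and oxidation genes none passed in edgeR or limma-voom, 5 had an unadjusted p under 0.05, and DESeq2 called 1 higher (Acot1, a cytosolic acyl-CoA thioesterase) and 2 lower (Slc27a3, a long-chain acyl-CoA synthetase, and Acaa1a, a peroxisomal thiolase), named after their values were seen. The log2 fold change was below 0 for 26 of the 33, with a median of -0.17, where 6389 of the 11844 tested genes were below 0. Hadha, a subunit of the mitochondrial trifunctional protein, had a log2 fold change of -0.04 and Etfa, which takes electrons from the dehydrogenases, one of -0.03.

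Of 16 tested regulators 1 passed in edgeR and limma-voom, or 6.25%, beside 8.5% of all tested genes in edgeR. DESeq2 called 3, or 18.8% (Insig1 higher, Pparg and Angptl4 lower), beside 8.16% of all tested genes higher and 6.79% lower. A surrogate variable in edgeR gave 7, or 43.8%, beside 21.0% of all tested genes in either direction. Of these 7, Srebf2 and Insig1 were higher, and Angptl4, Insig2, Scap, Mbtps2 and Nr1h2 were lower. Without vehicle replicate 4 edgeR called 4, or 25.0%, beside 15.5% (Srebf2 higher, and Angptl4, Insig2 and Mbtps2 lower). The gene called by each of these tools was Angptl4, an inhibitor of lipoprotein lipase and a target of PPAR factors, which held 148, 161, 298 and 231 CPM in vehicle and 125, 58.6, 98.3 and 66.9 CPM after S1P. It fell by 1.27 on the log2 scale (SE 0.29, edgeR BH-adjusted p = 0.0281), and its groups did not overlap. The call was made in 4 of the 8 fits with a library omitted (edgeR BH-adjusted p of up to 0.0952). Srebf2, the SREBP of sterol synthesis, held 125, 132, 94.5 and 288 CPM in vehicle and 205, 181, 141 and 164 CPM after S1P, with a log2 fold change of 0.11 that became 0.56 without vehicle replicate 4 (edgeR BH-adjusted p = 0.845 and 0.0431). Mbtps1, the protease that cuts SREBP precursors, had a log2 fold change of -0.31. Insig1, the sterol-sensitive anchor of SREBP and itself an SREBP target, was chosen after its value was seen: it held 47.4 to 74.9 CPM in vehicle and 79.3 to 124 CPM after S1P (log2 fold change 0.65, edgeR BH-adjusted p = 0.0549; called in DESeq2). Pparg, the adipogenic nuclear receptor, was chosen in the same way, and held 22.3 to 39.3 CPM in vehicle and 13.3 to 25.0 CPM after S1P (log2 fold change -0.71, edgeR BH-adjusted p = 0.114; called in DESeq2). Unlike Insig1, the listed Insig2 and Scap had log2 fold changes of -0.63 and -0.64 (edgeR BH-adjusted p = 0.133 and 0.195). Both Insig2 and Scap were called lower in edgeR with a surrogate variable, and Insig2 also without vehicle replicate 4. Of the 16 regulators 4 were above 0 in log2 fold change and 12 below.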

How the data were processed

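RNA of 8 libraries was sequenced by the authors. The deposited values are whole-number counts per Ensembl gene with mm9 coordinates, not normalised. STAR 2.5.3a and the mm9 build are named in the submitters' processing notes. For the counting tool and annotation nothing is stated (not given in the sources used here). Totals differ by 0.0818%, and whether reads were reduced to a common number is not stated. At these totals 3 counts, the limit a count of 0 allows, are 0.213 to 0.223 CPM, for counting error only.

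Columns were matched to samples by title. Genes were filtered with filterByExpr of edgeR 4.0.16 (minimum count 10) in R 4.3.3, scaled by TMM and tested with the robust quasi-likelihood test, treatment being the only term, over all 8 libraries, with Benjamini-Hochberg adjustment. The SE came from the F statistic. The fit was tested on simulated data. DESeq2 1.42.0, limma-voom (limma 3.58.1), sva 3.50.0, other scalings and filters, and leaving out libraries were alternatives. Every member is named. Members past the threshold, and the most abundant of a role without any, have values in every library. Of the further lists, called genes or the 2 with the most counts are named, with a few others beside a related gene. Transcript length, GC and shared 50-base stretches came from GENCODE vM21. Members and lists were chosen with earlier results of these data known.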

Additional observations from a re-analysis of the deposited data

Results flagged for a closer look

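In 8 of the 74 groups of 4 libraries (37 members in vehicle and in S1P), a single library lay far from the other 3 of its group. The limit used lets through about 1 in 20 groups by chance if the groups are independent. These are not, since all 37 members were read from the same libraries, so that rate is no expectation here. In 5 of the 8 the library was vehicle replicate 4, and it was high each time. Fasn, the fatty acid synthase, stood at 301 CPM there, while vehicle replicates 1 to 3 lay at 65.8 to 97.4 CPM, and Srebf1, which encodes the SREBP-1 factors, at 56.5 CPM against 15.7 to 17.8 CPM. The elongase Elovl1 stood at 103 CPM against 78.6 to 80.4 CPM, the desaturase Fads3 at 174 CPM against 85.9 to 94.6 CPM, and the acyltransferase Agpat2 at 17.7 CPM against 7.55 to 9.2 CPM. The transcripts of these 5 genes have a GC content of 52.5% to 58.4%.

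In vehicle replicate 3 the lipase gene Mgll was low, at 7.18 CPM against 14.9 to 15.3 CPM, and the synthetase gene Acsl1 was high, at 73.7 CPM against 35.8 to 39.99 CPM. In S1P replicate 5 the perilipin gene Plin4 was high, at 27.5 CPM against 4.31 to 5.23 CPM in the other S1P libraries.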

How the results depend on the processing

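No paired analysis was possible because the libraries are numbered 1 to 8 and the groups share no number. With all libraries 663 genes rose and 344 fell, and 5 members rose and 1 fell. Leaving out a library gave 333 to 1133 genes higher, 101 to 723 lower, 3 to 9 members higher and 0 to 3 lower. The gene counts moved by over 1.5 times without vehicle replicate 4 and without S1P replicate 6, 7 or 8, and 3 members rose without vehicle replicate 3 or any S1P library. Omitting both vehicle replicate 4 and S1P replicate 5 gave 1178 and 934 genes, and 8 and 4 members. A surrogate variable gave 1471 and 1015 genes, and 9 and 4 members. DESeq2 gave 804 genes lower and 3 members lower. The size factors of DESeq2 or upper-quartile factors gave 3 members higher and 2 lower. Against a 1.5-fold change (glmTreat) there were 150 and 35 genes and 0 members in either direction. The cause of these shifts was not tested.

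Over 46 named genes and 782 combinations of a gene and a setting, 698 kept their direction and their side of the threshold, 24 lost a call, 30 gained it and 30 changed sign, all in 11 genes that were not called. Acaca was -0.006 with DESeq2 or its size factors, -0.005 with a surrogate variable and -0.034 with upper-quartile factors, and ran from -0.102 to 0.114 with libraries left out (-0.012 without vehicle replicate 4, -0.015 without S1P replicate 8). With a surrogate variable Fasn was 0.157, Agpat2 0.012 and Lpl -0.005. With libraries left out, Fasn ran from -0.613 to 0.351 (highest without vehicle replicate 4), Srebf1 from -0.868 to 0.005, Agpat2 from -0.366 to 0.139 and Pnpla2 from -0.483 to 0.122. Lpl ran from -0.965 to 0.67, Lpin1 from -0.208 to 0.016, Acsl1 from -0.275 to 0.241, Acadl from -0.03 to 0.211, Etfa from -0.219 to 0.05 and Srebf2 from -0.072 to 0.562. Etfa was 0.004 with limma-voom. None of the 9 pairs passed with a pseudocount of 0.1 or 2 CPM.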
